A study of Mus musculus with 5 samples.

Results

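Keratins mark the layers of the mammary epithelium, and 8 of them were followed here: Krt5, Krt14, Krt15 and Krt17, grouped as basal keratins, and Krt7, Krt8, Krt18 and Krt19, grouped as luminal keratins. They were taken by symbol from a fixed list and make up 8 of the 27998 genes counted and 8 of the 51 genes whose symbol is Krt with a number. Their counts of unique molecular identifiers (UMIs, each standing for 1 captured transcript) were summed over 4516 epithelial cells among 14344 barcodes of 5 droplet single-cell RNA-sequencing libraries. All 5 libraries came from the number 4 mammary glands, without the lymph node and unsorted, of ovariectomized female BALB/cj mice aged 30 weeks, and there was 1 library per group. OVX mice were injected with vehicle, DMSO. OVX_E2 mice received estradiol (E2) at 1 µg per animal daily, and OVX_E2_P4 mice received the same dose with progesterone (P4) at 0.1 mg per animal. OVX_E2_PBDE and OVX_E2_P4_PBDE mice had these hormones together with food dosed with polybrominated diphenyl ethers (PBDEs, flame retardants), namely 7.1 mg/kg of BDE-47, 0.9 mg/kg of BDE-153 and 0.4 mg/kg of BDE-100, while the food of the other groups held DMSO alone. Treatment lasted 1 week and began 20 weeks after ovariectomy, which every group had undergone, OVX included. The number of mice behind each library is not given in the sources used here. With 1 library per group, the treatment, the animals and the library cannot be told apart, no difference between groups was tested, and every interval below covers counting error only.

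Keratins are the intermediate filament proteins of epithelial cells, and a filament forms only when a type I keratin pairs with a type II keratin. Krt5, Krt7 and Krt8 are type II keratins, and Krt14, Krt15, Krt17, Krt18 and Krt19 are type I keratins. In the mammary gland the pair Krt5 and Krt14 is known from the outer layer of contractile basal cells, and the pair Krt8 and Krt18 with Krt19 from the inner luminal cells, which are either hormone sensing (L-Hor) or alveolar, the lineage that makes milk (L-Alv).

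So that the keratins could be read as measurements, no Krt gene was used to cluster the cells or to name the clusters. Over the 5 libraries 2525 cells were L-Hor-like, 421 were basal-like and 328 were cycling epithelial cells, and 1047 cells of the 4 estradiol-treated libraries were L-Alv-like. OVX had neither an L-Alv-like nor a cycling cluster, and its 195 mixed luminal cells, which carried markers of both luminal lineages, are given on their own. Cells per library ranged from 92 in OVX to 759 in OVX_E2_P4 for L-Hor-like cells and from 60 in OVX to 148 in OVX_E2_P4 for basal-like cells. Each of the 10 basal markers was detected in the basal-like cells of every library, as were the 10 markers of L-Hor and of L-Alv in the cells named for them. Total UMIs per library ranged from 19982067 to 42012988 and the median per barcode from 5345 to 8698. Another 1794 barcodes in clusters that resembled mixtures of other clusters were set aside as putative multiplets, and pairs of libraries shared between 3 and 15 barcodes.

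The 8 genes lie in the keratin clusters of chromosomes 11 and 15 (GRCm38, GENCODE M21). On the minus strand of chromosome 11, Krt15 (ENSMUSG00000054146, chr11:100131758-100135928) ends the stretch with Krt19 (ENSMUSG00000020911, chr11:100140810-100148665) 4881 bases away, followed by Krt14 (ENSMUSG00000045545, chr11:100203162-100207548) and Krt17 (ENSMUSG00000035557, chr11:100256217-100261029). On chromosome 15, Krt7 (ENSMUSG00000023039, chr15:101411043-101430313) and Krt18 (ENSMUSG00000023043, chr15:102028180-102032027) lie on the plus strand and Krt5 (ENSMUSG00000061527, chr15:101707070-101712898) and Krt8 (ENSMUSG00000049382, chr15:101996698-102004482) on the minus strand. Krt18 is the only type I member on chromosome 15 and lies 23697 bases from Krt8, its type II partner, and the pair is transcribed away from each other. In the last 500 bases of the transcripts, where 3′ libraries take their reads, Krt14 and Krt17 each had 43 of 451 windows of 50 bases in common with another keratin (each other or Krt16), so reads from those windows could not be told apart, and the other 6 members had 0.

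Sequence upstream of the start is shown for the Krt8 and Krt18 pair, whose levels moved together across the profiles described below, and for Krt5, the type II keratin of the basal layer. The windows are those of RefSeq (GRCm38.p6), which held 5 of the 8 members, cut to the bases upstream of both the RefSeq and the GENCODE start. Capitals mark CAGGTG or its reverse complement CACCTG, an E-box form, which was searched on both strands and found in 20.2% of all 32851 RefSeq windows of 300 bases.
Krt5, chr15:101712906-101713155, minus strand: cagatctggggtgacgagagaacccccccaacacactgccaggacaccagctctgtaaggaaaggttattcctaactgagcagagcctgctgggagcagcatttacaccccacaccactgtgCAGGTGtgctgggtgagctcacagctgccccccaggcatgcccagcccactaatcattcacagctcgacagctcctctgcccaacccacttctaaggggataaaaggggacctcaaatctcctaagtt
Krt18, chr15:102027966-102028179, plus strand: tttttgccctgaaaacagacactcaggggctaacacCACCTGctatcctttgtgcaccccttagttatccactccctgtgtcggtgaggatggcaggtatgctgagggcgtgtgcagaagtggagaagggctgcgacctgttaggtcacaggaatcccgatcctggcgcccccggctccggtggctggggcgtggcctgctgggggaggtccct
Krt8, chr15:102004483-102004592, minus strand: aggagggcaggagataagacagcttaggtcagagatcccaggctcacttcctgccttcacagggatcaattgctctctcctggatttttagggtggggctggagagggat
The printed Krt5 and Krt18 stretches held the E-box form 1 time each, and the 110 printed bases of Krt8 held none. The whole RefSeq window of Krt8 held it as well, outside the bases printed. The RefSeq starts of Krt7 and Krt14 lie 1360 and 1518 bases from the GENCODE starts, inside the gene, and nothing is given for these windows. A match is a description of the letters and not a bound site.

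Levels are given as CPM. For each cell type and library, the UMIs of the gene were added up and divided by all UMIs of the same cells, then multiplied by 1000000. Each captured transcript counts as 1 whatever its length, so levels of different members can be set side by side, apart from differences in capture.

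Krt14, the type I keratin of the basal layer, was the basal keratin with the highest level in every library. In basal-like cells it stood at 3651 CPM in OVX (95% exact Poisson interval 3467 to 3842), 1747 in OVX_E2, 1542 in OVX_E2_P4, 1071 in OVX_E2_PBDE and 1122 in OVX_E2_P4_PBDE. OVX was above all 4 estradiol-treated libraries. Krt17, a type I keratin known from stressed and regenerating epithelium, came next in each library, with 2018 CPM in OVX, 1256 in OVX_E2, 1098 in OVX_E2_P4, 796 in OVX_E2_PBDE and 652 in OVX_E2_P4_PBDE. Krt5, the type II partner of Krt14, varied least of the basal keratins, at 452 CPM in OVX, 432 in OVX_E2, 469 in OVX_E2_P4, 341 in OVX_E2_PBDE and 282 in OVX_E2_P4_PBDE, a 1.66-fold range. The intervals of OVX, OVX_E2 and OVX_E2_P4 overlapped for Krt5. Krt14 thus gave 8.08 UMIs for each UMI of Krt5 in OVX and between 3.14 and 4.04 in the other libraries.

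Krt15, a type I keratin known from the basal layer of stratified epithelia and from hair follicle stem cells, had another order of libraries than the other basal keratins. Not a single Krt15 UMI was counted among the 404793 UMIs of the 60 basal-like cells of OVX, and 3 counts would have been 7.41 CPM. It stood at 118 CPM in OVX_E2 (112 UMIs), 173 in OVX_E2_P4 (260 UMIs), 61.1 in OVX_E2_PBDE (83 UMIs) and 31.9 in OVX_E2_P4_PBDE (29 UMIs). No pair of these 5 libraries had overlapping intervals, the closest being OVX_E2_PBDE with a lower bound of 48.7 CPM and OVX_E2_P4_PBDE with an upper bound of 45.9 CPM. Skin markers summed to at most 19.8 CPM in the basal-like cells of any library, and at least 2 of the 5 (Flg and Dsg1a in each) were at 0. Whether skin or hair follicle cells were among the basal-like cells was not tested.

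In L-Hor-like cells Krt15 was the basal keratin with the highest level: 28.5 CPM in OVX, 17.0 in OVX_E2, 27.6 in OVX_E2_P4, 15.2 in OVX_E2_PBDE and 12.9 in OVX_E2_P4_PBDE. Fibroblast-like cells, which were taken as a measure of free RNA, had between 0.494 and 3.38 CPM. Whether they also held keratin transcripts of their own was not tested. L-Hor-like cells exceeded the fibroblast-like cells of their own library by 8.16-fold (exact 95% interval 5.10 to 13.8) in OVX_E2_P4 to 55.8-fold (23.0 to 155, on 22 and 7 UMIs) in OVX. After each cell was thinned to 3000 UMIs, 10.9% of L-Hor-like cells of OVX had a Krt15 UMI, as did 4.62% in OVX_E2, 7.91% in OVX_E2_P4, 4.11% in OVX_E2_PBDE and 3.39% in OVX_E2_P4_PBDE, against 0.195% to 1.05% of fibroblast-like cells. Without thinning these shares were 6.27% to 19.6% and 0.225% to 2.00%, at median depths of 5528.5 to 10456 UMIs for L-Hor-like and 4252 to 7031 UMIs for fibroblast-like cells. L-Alv-like cells were lower, at 0.947 to 5.59 CPM. The ratio of Krt15 to Krt14 UMIs was 1.69 to 2.93 in L-Hor-like cells, 0 to 0.112 in basal-like cells and 0.0551 to 0.238 in fibroblast-like cells.

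The other basal keratins were near the fibroblast-like level in L-Hor-like cells. Krt5 reached 1.40 to 5.18 CPM, Krt14 4.75 to 16.8 CPM and Krt17 3.99 to 7.76 CPM, which was 0.623 to 2.26 times, 0.703 to 1.96 times and 0.795 to 1.66 times the level of fibroblast-like cells. Krt17 stood further above it in L-Alv-like cells, with 25.4 CPM in OVX_E2, 16.9 in OVX_E2_P4, 29.5 in OVX_E2_PBDE and 15.2 in OVX_E2_P4_PBDE, or 2.16 to 11.6 times the fibroblast-like level. The trait was not particular to Krt17. In L-Alv-like cells Krt14 reached 1.09 to 4.19 times and Krt15 1.65 to 6.33 times that level, each with a smaller ratio than Krt17 in every library. Their intervals included 1 in OVX_E2_P4 and OVX_E2_P4_PBDE. Krt5 reached 0.949 to 1.58 times that level. Krt17 gave 0.924 to 2.67 UMIs per Krt14 UMI in L-Alv-like cells, against 0.364 to 0.810 in fibroblast-like and 0.553 to 0.743 in basal-like cells. In thinned L-Alv-like cells 3.11% to 7.39% had a Krt17 UMI (9.76% to 14.3% before thinning, median depth 7116 to 11571), against 0.637% to 1.91% of fibroblast-like cells (1.88% to 4.32% before thinning).

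**Figure D1:**
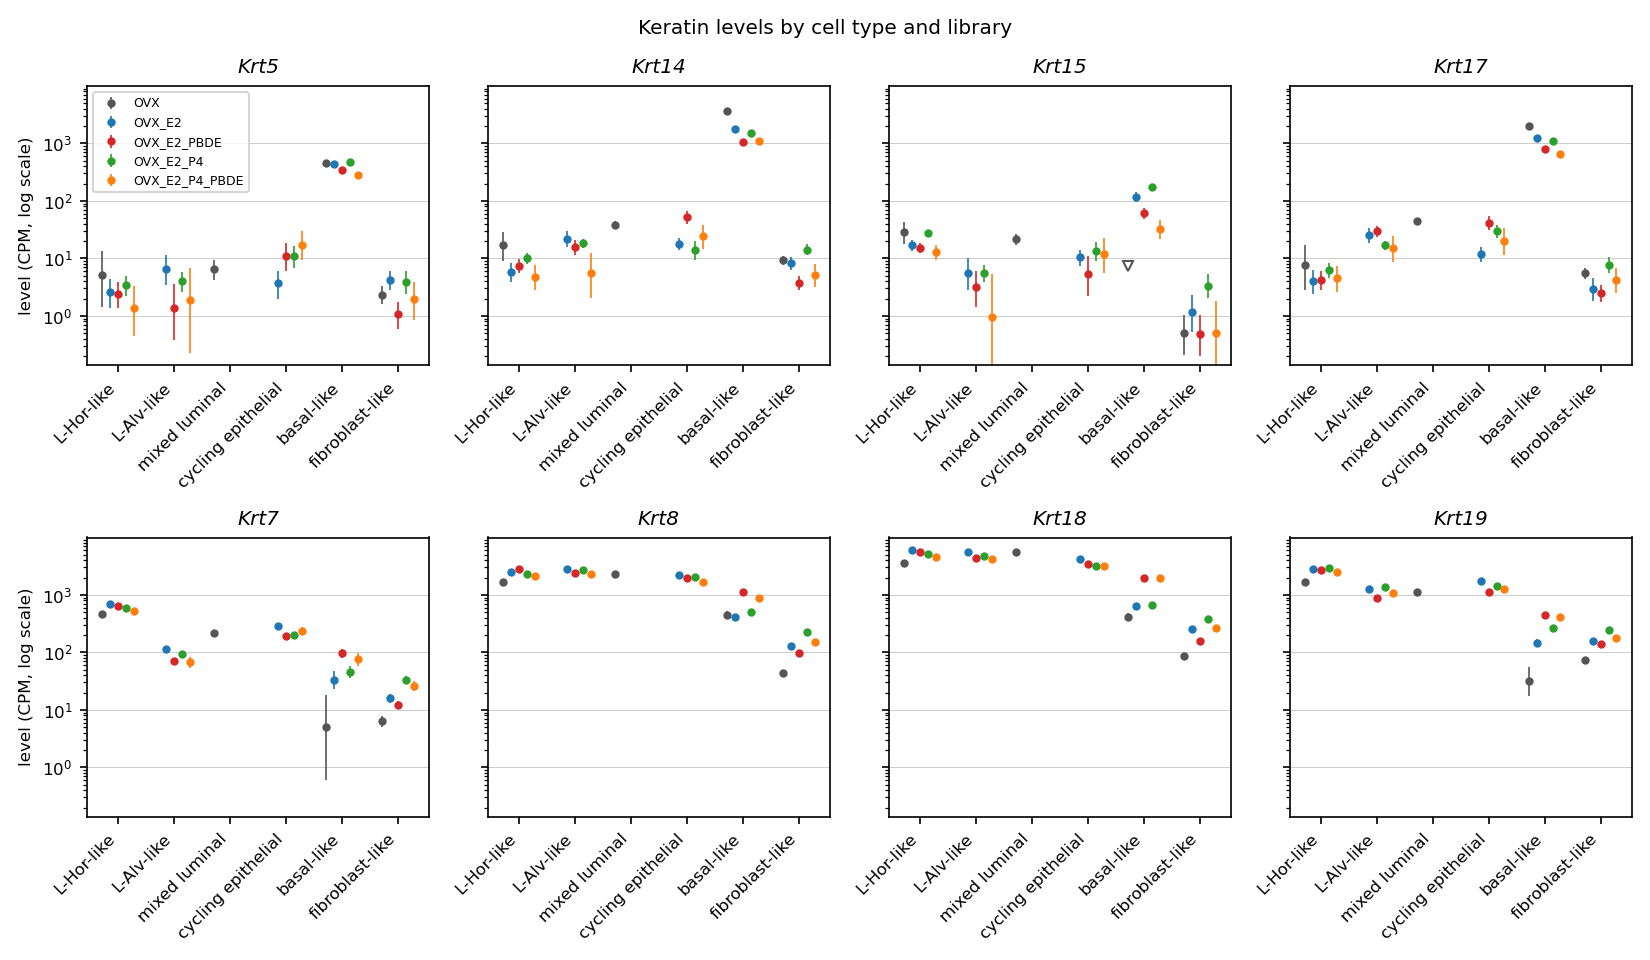
Levels of the 8 keratins in CPM (log axis) for each library and cell type; points are summed levels, bars are exact 95% Poisson intervals, and an open triangle marks 0 UMIs, drawn at the level of 3 counts. Krt5, Krt14 and Krt17 lie highest in basal-like cells, Krt7, Krt8, Krt18 and Krt19 in luminal cells, and the open triangle for Krt15 in basal-like cells of OVX stands against 118 CPM in OVX_E2.

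Krt18, the type I partner of Krt8, was the luminal keratin with the highest level in every luminal type and library. In L-Hor-like cells it stood at 3646 CPM in OVX, 5992 in OVX_E2, 5129 in OVX_E2_P4, 5563 in OVX_E2_PBDE and 4570 in OVX_E2_P4_PBDE. Krt8, the type II partner, stood at 1692 CPM in OVX, 2544 in OVX_E2, 2284 in OVX_E2_P4, 2783 in OVX_E2_PBDE and 2096 in OVX_E2_P4_PBDE. OVX was the lowest library for both. In L-Alv-like cells Krt18 stood at 5647 CPM in OVX_E2, 4785 in OVX_E2_P4, 4337 in OVX_E2_PBDE and 4147 in OVX_E2_P4_PBDE, and Krt8 at 2860, 2745, 2371 and 2266 CPM in the same libraries. The 2 luminal lineages therefore differed little in this pair, with L-Hor-like over L-Alv-like ratios of 1.06 to 1.28 for Krt18 and 0.832 to 1.17 for Krt8.

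Krt7 and Krt19 separated the luminal lineages. Krt7, a type II keratin of simple ductal epithelia, stood at 462 CPM in OVX, 683 in OVX_E2, 584 in OVX_E2_P4, 651 in OVX_E2_PBDE and 531 in OVX_E2_P4_PBDE, all for L-Hor-like cells. Its L-Alv-like levels were 114 CPM in OVX_E2, 92.0 in OVX_E2_P4, 70.4 in OVX_E2_PBDE and 67.3 in OVX_E2_P4_PBDE, so that L-Hor-like cells were 6.01-fold (exact 95% interval 5.25 to 6.91), 6.34-fold, 9.25-fold and 7.90-fold higher. Krt19, a type I keratin without the usual tail domain, showed the same direction with smaller ratios: L-Hor-like cells held 1701 CPM in OVX, 2833 in OVX_E2, 2973 in OVX_E2_P4, 2714 in OVX_E2_PBDE and 2466 in OVX_E2_P4_PBDE. L-Alv-like cells held 1268 CPM of Krt19 in OVX_E2, 1384 in OVX_E2_P4, 870 in OVX_E2_PBDE and 1061 in OVX_E2_P4_PBDE, and the ratios were 2.24, 2.15, 3.12 and 2.32. Among thinned cells 75% to 82.1% of L-Hor-like and 18.7% to 29.6% of L-Alv-like cells had a Krt7 UMI, against 1.99% to 8% of fibroblast-like cells. Without thinning these shares were 92.5% to 99.2%, 39.0% to 64.8% and 3.32% to 16.1%.

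In the mixed luminal cells of OVX, Krt7 stood at 214 CPM and Krt19 at 1144 CPM, both under the L-Hor-like cells of the same library, and Krt18 at 5594 CPM, above them. Krt14 and Krt17 reached 37.7 and 44.4 CPM there, higher than in either luminal type of any library. The part of possible multiplets in these levels was not tested. Cycling epithelial cells of the 4 other libraries lay between the lineages for Krt7 (195 to 285 CPM) and Krt19 (1104 to 1752 CPM) in each library, and were lower than both luminal types for Krt18 (3127 to 4183 CPM). Their Krt14 ranged from 14.2 CPM in OVX_E2_P4 to 52.2 CPM in OVX_E2_PBDE, a library with only 41 cycling cells.

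Across the 8 genes, the basal keratins made up 57.3% of keratin UMIs in basal-like cells (exact binomial 95% interval 56.7% to 57.9%, 27519 UMIs), 0.313% in L-Hor-like and 0.532% in L-Alv-like cells. The share in basal-like cells was 87.2% in OVX, 74.0% in OVX_E2, 68.7% in OVX_E2_P4, 38.7% in OVX_E2_PBDE and 38.1% in OVX_E2_P4_PBDE. Both PBDE libraries were thus below the 3 others. All 8 keratins together held 0.478% to 0.702% of all UMIs in basal-like, 0.756% to 1.21% in L-Hor-like and 0.756% to 0.995% in L-Alv-like cells. Type II members, which pair with type I members in the filament, gave only 12.8% to 26.3% of keratin UMIs in basal-like, 26.1% to 29.3% in L-Hor-like and 30.0% to 31.7% in L-Alv-like cells.

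**Figure D2:**
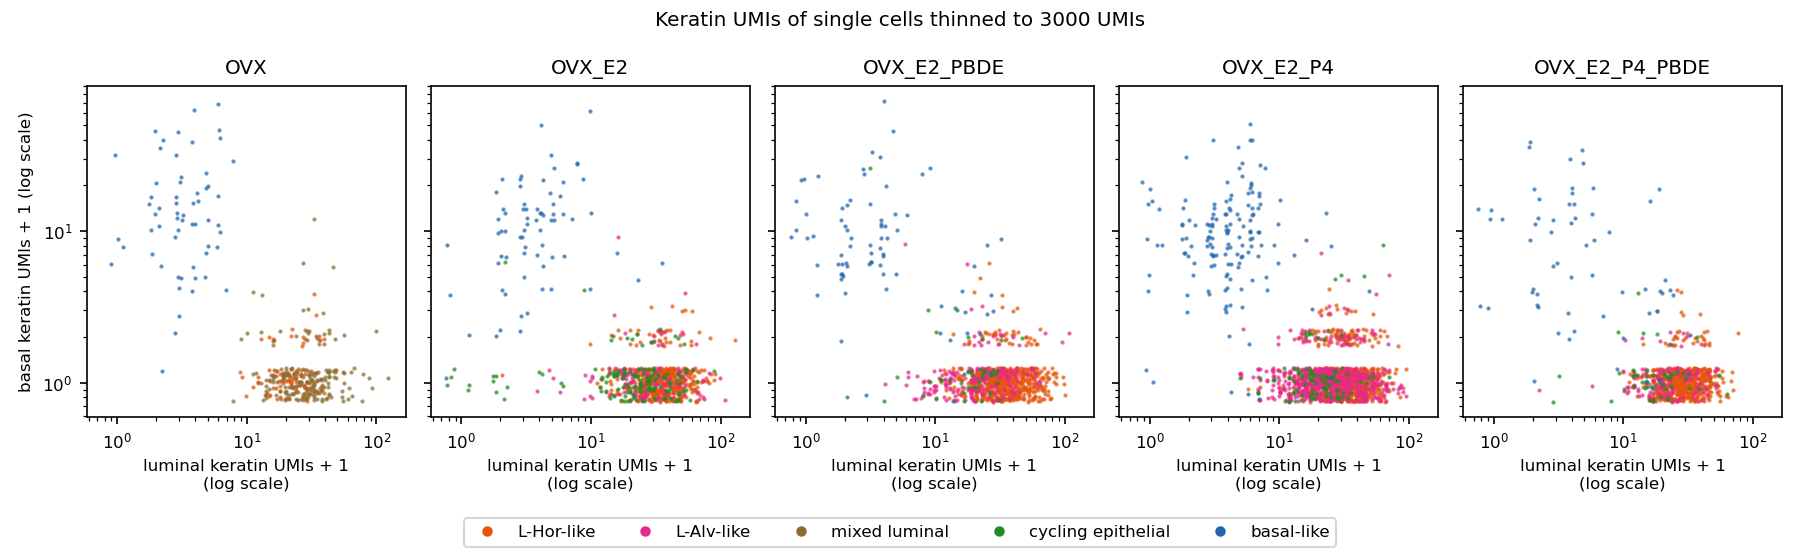
Basal (Krt5, Krt14, Krt15, Krt17) against luminal (Krt7, Krt8, Krt18, Krt19) keratin UMIs plus 1 of single cells thinned to 3000 UMIs, on log axes, with 1 panel per library; each point is a cell, shifted at random by less than 1 UMI so that fewer points cover each other. Most basal-like cells lie at low luminal counts, and OVX_E2_PBDE and OVX_E2_P4_PBDE hold 17 and 16 basal-like cells with a basal share under 25%, among the luminal cells.

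In single cells the basal and luminal keratins were largely exclusive in L-Hor-like cells. Among cells with at least 5 keratin UMIs after thinning, the basal share lay between 25% and 75% in 0 L-Hor-like cells of any library. In basal-like cells it lay in that range in 14 of 57 cells of OVX, 19 of 61 of OVX_E2, 68 of 140 of OVX_E2_P4, 16 of 75 of OVX_E2_PBDE and 13 of 52 of OVX_E2_P4_PBDE. It was under 25% in 17 basal-like cells of OVX_E2_PBDE and 16 of OVX_E2_P4_PBDE, but in 0 of OVX, 2 of OVX_E2 and 7 of OVX_E2_P4.

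All basal-like cells were examined with markers other than keratins. A basal-like cell was counted as above the luminal limit when its UMIs of the 20 L-Hor and L-Alv markers, per 3000 UMIs, exceeded the 99th percentile of the fibroblast-like cells of its library, a limit chosen after the data had been seen. The limit was 5.16 UMIs per 3000 in OVX, 4.61 in OVX_E2, 7.14 in OVX_E2_P4, 4.58 in OVX_E2_PBDE and 6.30 in OVX_E2_P4_PBDE. The libraries were thus not held to the same value. Above the limit of their library lay 0 of 60 basal-like cells of OVX, 5 of 71 of OVX_E2, 7 of 148 of OVX_E2_P4, 18 of 79 of OVX_E2_PBDE and 20 of 63 of OVX_E2_P4_PBDE, or 0%, 7.04%, 4.73%, 22.8% and 31.7%. Their median depth was 14088 to 31912 UMIs, against 5446.5 to 11216.5 UMIs for the basal-like cells at or below the limit. Of basal-like cells with a basal share under 25%, 3 of 7 in OVX_E2_P4 lay above the limit. In OVX_E2, OVX_E2_PBDE and OVX_E2_P4_PBDE all such cells did (2, 17 and 16). Whether the cells above the limit were basal cells with luminal transcripts or barcodes that held more than 1 cell was not tested.

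Cells above the limit carried most of the luminal keratins counted in the basal-like cells of the PBDE libraries. The 18 such cells of OVX_E2_PBDE held 2366 of the 2638 Krt18 UMIs and the 20 of OVX_E2_P4_PBDE 1656 of 1818. Krt18 stood at 3785 and 3335 CPM in them, next to 4337 and 4147 CPM among L-Alv-like cells of these libraries. At or below the limit it stood at 415 CPM in OVX, 354 in OVX_E2, 502 in OVX_E2_P4, 371 in OVX_E2_PBDE and 394 in OVX_E2_P4_PBDE, in each case above the 87.2, 253, 387, 158 and 266 CPM of fibroblast-like cells. Krt8 at or below the limit ranged from 275 CPM in OVX_E2_P4_PBDE to 445 CPM in OVX. Krt18 gave 0.933 to 1.43 UMIs per Krt8 UMI there, 1.89 to 2.51 above the limit, 2.00 to 2.36 in L-Hor-like, 1.74 to 1.97 in L-Alv-like and 1.60 to 2.03 in fibroblast-like cells. The ratio in basal-like cells at or below the limit thus lay below the range of each other type.

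In those cells Krt19 was below the fibroblast-like level in every library, and Krt7 was below it in every library but OVX_E2. Krt19 stood at 32.1 CPM in OVX, 82.1 in OVX_E2, 183 in OVX_E2_P4, 75 in OVX_E2_PBDE and 94.8 in OVX_E2_P4_PBDE, and each value was below the 73.1, 156, 241, 139 and 180 CPM of the fibroblast-like cells of the same library. Krt7 ranged from 4.94 to 32.0 CPM there, against 6.34 to 33.8 CPM in fibroblast-like cells, and exceeded that of its own library in OVX_E2 (22.3 against 15.9 CPM). Krt14, in contrast, was higher at or below the limit than over all basal-like cells of the 4 estradiol-treated libraries. It stood at 3651 CPM in OVX, 1861 in OVX_E2, 1580 in OVX_E2_P4, 1683 in OVX_E2_PBDE and 1999 in OVX_E2_P4_PBDE. The basal share of keratin UMIs over the 371 cells at or below the limit was 80.4%.

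**Figure D3:**
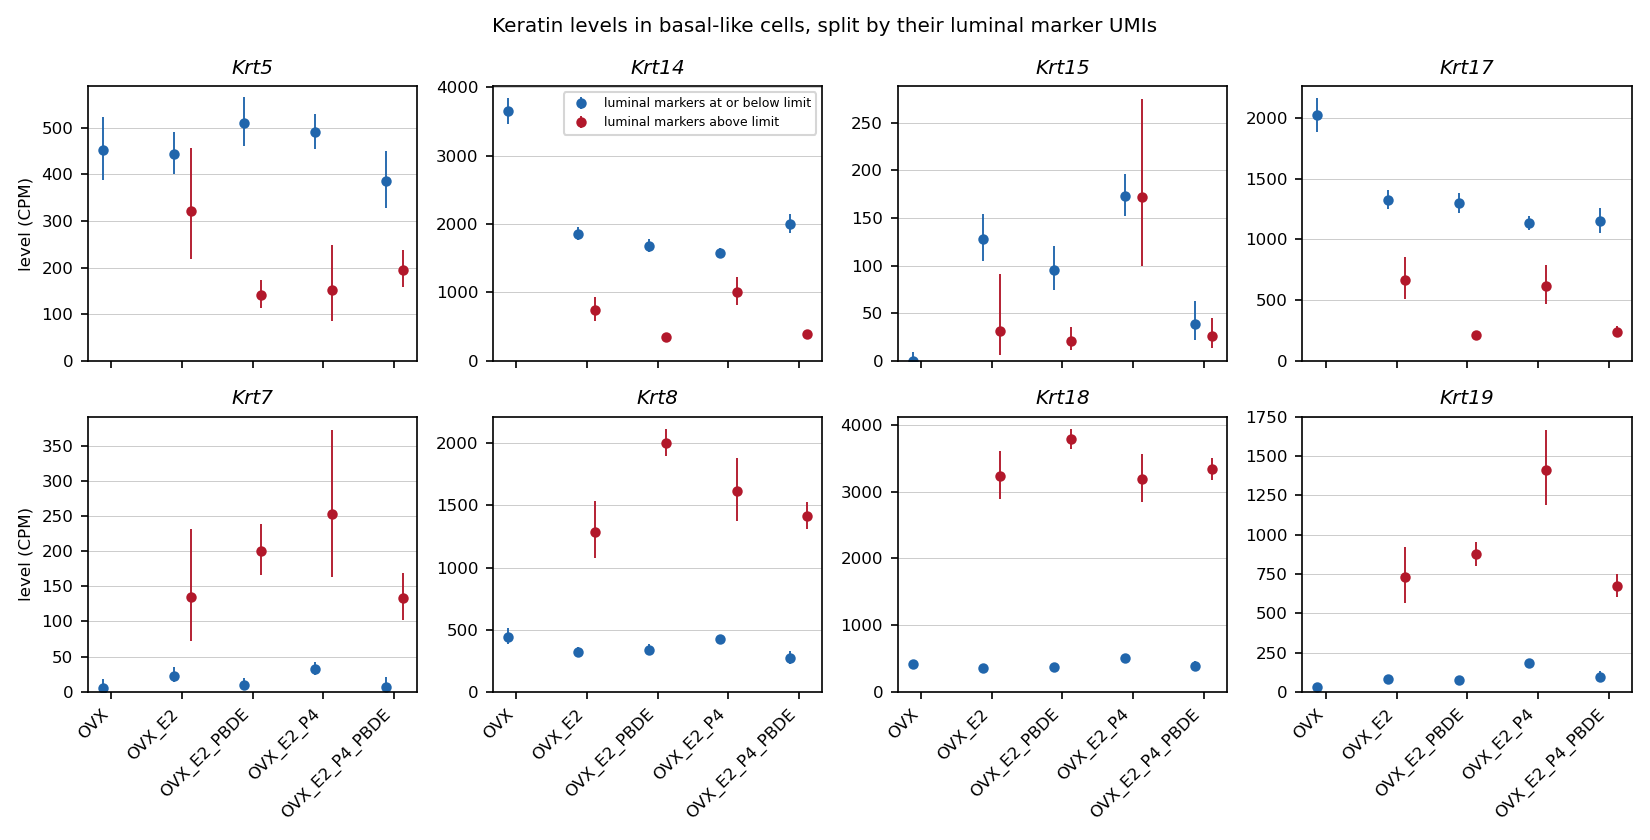
Levels (CPM, linear axes from 0) of the 8 keratins in basal-like cells at or below and above the limit set on luminal marker UMIs, by library; bars are exact 95% Poisson intervals, and OVX had no cell above the limit. Krt18 lies between 354 and 502 CPM at or below the limit and above 3000 CPM beyond it, and Krt14 at or below the limit is highest in OVX at 3651 CPM.

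For the comparisons between groups, a member was compared in a cell type found in both libraries when it had at least 50 UMIs over both, and a ratio of at least 2 or at most 0.5 was called. The comparisons share libraries and are not independent. The median log2 ratio of all genes lay between -0.24 (L-Hor-like cells, OVX_E2 over OVX) and -0.02, so a ratio of 1 stood slightly above the median gene.

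OVX_E2 against OVX asked what estradiol changed after ovariectomy. Of 12 pairs of a member and a cell type 3 were called, all in basal-like cells, where 13.8% of 3069 genes were called. In L-Hor-like cells, where 9.24% of 7400 genes were called, 0 of 5 members were. In basal-like cells Krt14 was lower in OVX_E2, with a ratio of 0.478 (exact 95% interval 0.446 to 0.514). The call was lost under 4 alternatives, in which the ratio was 0.510 without the cells above the luminal limit, 0.502 with scaling by the median of ratios, 0.526 when the 20% of barcodes with the highest Scrublet multiplet score were removed in place of multiplet clusters, and 0.631 as a mean of single cells. Krt15 was at least 15.9-fold higher in OVX_E2 against the level of 3 counts in OVX, and at least 13.8-fold on that footing in every alternative tried. The exact 95% interval of the ratio, which includes the counting error of both libraries, starts at 12.7. Krt19 was 4.59-fold higher (2.60 to 8.84), from 32.1 to 148 CPM, but both values lay below the fibroblast-like levels of 73.1 and 156 CPM in the same libraries. Without the cells above the luminal limit the ratio of Krt19 was 2.56 (1.40 to 5.04). Of the members that were not called, Krt18 had a ratio of 1.56 (1.31 to 1.86), which turned to 0.853 (0.704 to 1.04) without those cells, while Krt17 had a ratio of 0.622, Krt5 of 0.956 and Krt8 of 0.943.

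In L-Hor-like cells all 4 luminal keratins were higher in OVX_E2 without reaching 2-fold: the ratio was 1.48 for Krt7 (1.33 to 1.65), 1.5 for Krt8 (1.42 to 1.59), 1.64 for Krt18 (1.58 to 1.71) and 1.67 for Krt19 (1.57 to 1.76). The median log2 ratio of the 5 members compared was 0.59 there, against -0.24 over all genes. With the putative multiplet clusters kept as cells, the ratio of Krt7 turned to 0.971 and that of Krt19 was 1.21, and with the removal by Scrublet score they were 1.05 and 1.35. Both settings placed mixed barcodes of OVX_E2 among its L-Hor-like cells, but not the 195 mixed luminal cells of OVX. The libraries were thus not treated alike, and these values cannot show how far the ratios depend on multiplets. With multiplet clusters set aside, fibroblast markers in L-Hor-like cells summed to 2596 CPM for OVX and 1716 CPM for OVX_E2. Their part in the higher keratin levels of OVX_E2 was not tested. Krt15 had a ratio of 0.596 with an interval of 0.370 to 1.00.

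OVX_E2_PBDE against OVX_E2 asked what PBDEs changed under estradiol. Of 21 pairs 4 were called, all higher and all in basal-like cells, where 6.48% of 4369 genes were called. These were Krt7 with a ratio of 2.88 (1.95 to 4.38), Krt8 of 2.63 (2.36 to 2.95), Krt18 of 3.01 (2.75 to 3.29) and Krt19 of 3.00 (2.50 to 3.64), that is the 4 luminal keratins. The summed level of the 10 L-Alv markers in the same basal-like cells was 2521 CPM in OVX_E2_PBDE and 449 CPM in OVX_E2, and that of the 10 L-Hor markers 935 and 353 CPM. Without the cells above the luminal limit 0 pairs were called, and the ratios were 1.05 for Krt8 (0.879 to 1.25), 1.05 for Krt18 (0.886 to 1.24) and 0.914 for Krt19. As a mean of single cells, Krt18, Krt7 and Krt8 also stayed under 2-fold, at 1.76, 1.63 and 1.60, and with the removal by Scrublet score so did Krt7, at 1.31. Basal keratins had ratios of 0.518 for Krt15 to 0.789 for Krt5 in all basal-like cells, and of 0.747 to 1.15 without the cells above the limit. In the L-Hor-like and L-Alv-like types, where 1.79% of 9128 and 1.64% of 6455 genes were called, members ranged from 0.620 for Krt7 in L-Alv-like to 1.29 for Krt14 in L-Hor-like cells.

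OVX_E2_P4 against OVX_E2 asked what progesterone added to estradiol, and 0 of 21 pairs were called, while 1.62% of 9281 genes were called in L-Hor-like, 2.00% of 8166 in L-Alv-like and 2.85% of 4638 in basal-like cells. The member furthest from 1 was Krt19 in basal-like cells, with a ratio of 1.79 (1.47 to 2.19), from 148 to 264 CPM, next to 156 and 241 CPM in fibroblast-like cells. Without the cells above the luminal limit it reached 2.23. Krt15 was higher in both L-Hor-like cells, with a ratio of 1.62 (1.25 to 2.12), and basal-like cells, with a ratio of 1.46 (1.17 to 1.84), though with a mitochondrial limit of 5% the latter turned to 0.900. The 4 luminal keratins had ratios of 0.855 to 1.05 in L-Hor-like and 0.810 to 1.09 in L-Alv-like cells.

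OVX_E2_P4_PBDE against OVX_E2_P4 asked what PBDEs changed under estradiol with progesterone. Of 21 pairs 5 were called, 1 higher and 4 lower, while 3.08% of 8892 genes were called in L-Hor-like, 5.18% of 7814 in L-Alv-like and 6.49% of 4451 in basal-like cells. Krt15 was lower in basal-like cells, with a ratio of 0.185 (0.122 to 0.272), and 0.225 without the cells above the luminal limit. It was also lower in L-Hor-like cells, with a ratio of 0.466 (0.331 to 0.645), which left the called range with multiplet clusters kept (0.528), with the fibroblast-like level subtracted (0.511) and with scaling by the median of ratios (0.504). Krt14 was lower in L-Hor-like cells with a ratio of 0.475 (0.263 to 0.813, 17 and 74 UMIs) and in L-Alv-like cells with a ratio of 0.310 (0.112 to 0.696, 6 and 118 UMIs). The first left the called range with multiplet clusters kept (0.738) and with the removal by Scrublet score (0.678). Scaling by the median of ratios also took it out of that range (0.514). With the fibroblast-like level subtracted, the second was at most 0.693. That subtraction left OVX_E2_P4_PBDE under the level of 3 counts, which was used in its place, so it cannot show whether the call was lost. Krt14 in fibroblast-like cells went from 14.2 CPM in OVX_E2_P4 to 5.24 CPM in OVX_E2_P4_PBDE, next to 10.0 and 4.75 CPM in L-Hor-like and 18.3 and 5.68 CPM in L-Alv-like cells. Krt18 was 2.95-fold higher in basal-like cells (2.73 to 3.19), and the direction turned without the cells above the limit, with a ratio of 0.784 (0.657 to 0.931). Krt14 in basal-like cells, at 0.727 (0.675 to 0.783) and not called, turned to 1.27 (1.17 to 1.37) by the same removal. So did Krt8, from 1.78 (1.61 to 1.97) to 0.645 (0.523 to 0.790), and Krt19, from 1.56 (1.35 to 1.80) to 0.517 (0.359 to 0.726), and Krt17 went from 0.593 to 1.01 (0.914 to 1.13). The 10 L-Alv markers summed to 2399 CPM in these basal-like cells and to 678 CPM in OVX_E2_P4.

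OVX_E2_P4_PBDE against OVX_E2_PBDE, the addition of progesterone under PBDEs, gave 1 called pair of 20, while 1.84% of 8658 genes were called in L-Hor-like, 2.52% of 5595 in L-Alv-like and 1.76% of 4145 in basal-like cells. It was Krt14 in L-Alv-like cells with a ratio of 0.356 (0.124 to 0.836) on 6 and 46 UMIs. In basal-like cells Krt18 had a ratio of 1.03 (0.970 to 1.09) and Krt14 of 1.05 (0.966 to 1.14), while Krt15 had a ratio of 0.523 (0.330 to 0.806) in all and 0.407 (0.221 to 0.708) without the cells above the limit. Luminal keratins in L-Hor-like cells had ratios of 0.753 for Krt8 to 0.909 for Krt19.

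**Figure D4:**
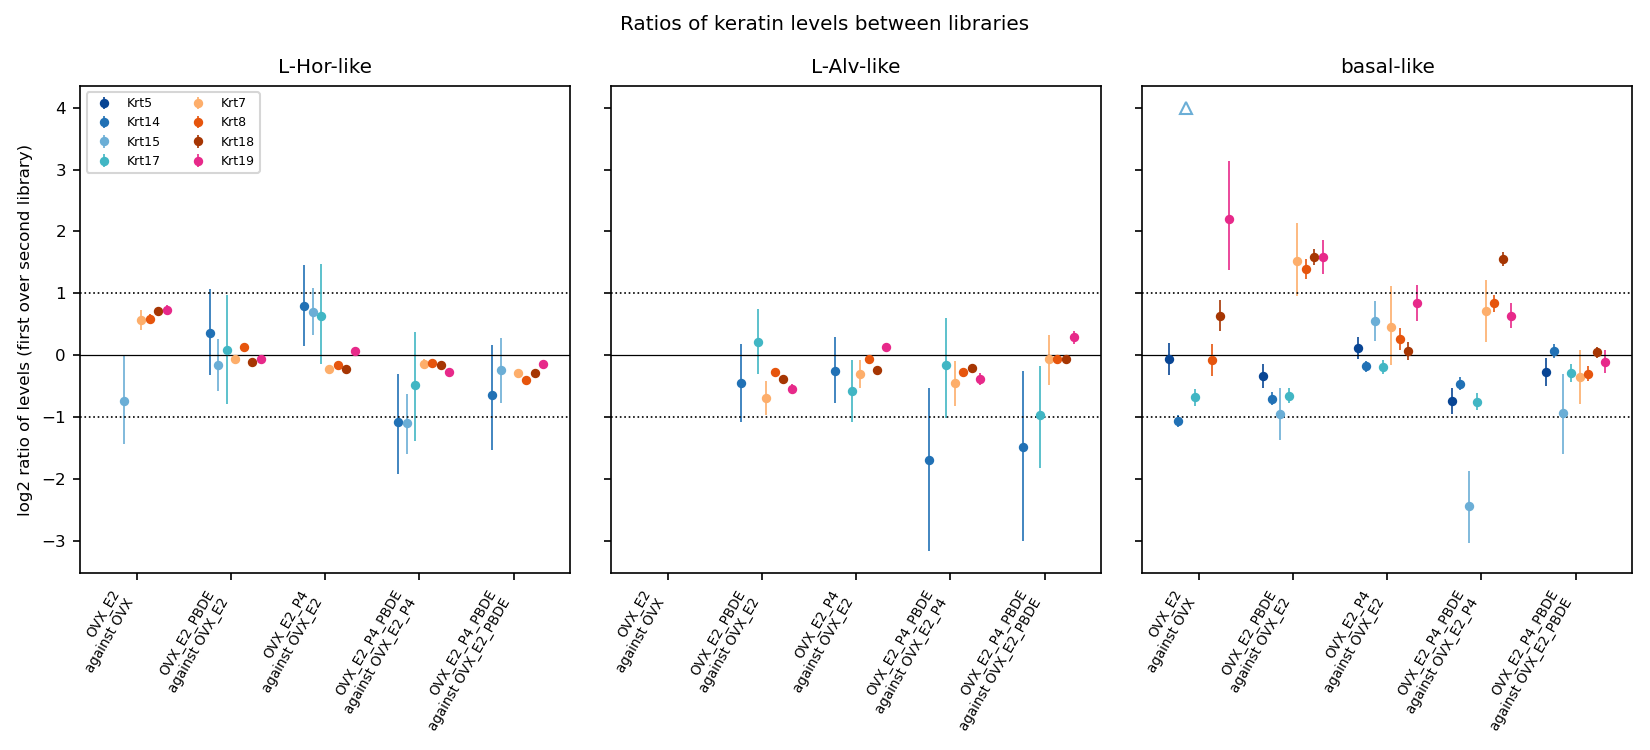
log2 ratio of the level in the first library over the second for each keratin, cell type and comparison; bars are exact 95% intervals, dotted lines mark 2-fold, and the open triangle is a lower bound. Luminal members lie within 2-fold in both luminal types in every comparison, and Krt15 in basal-like cells ranges from a ratio of 0.185 to at least 15.9 against the level of 3 counts.

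The filaments attach to desmosomes and hemidesmosomes, and 18 genes of these junctions and of the linkers to them were set beside the keratins. Over the 5 comparisons, 6 of 180 pairs of such a gene and a cell type were called (3.33%), all lower: Ppl, Dst, Pkp4, Col17a1 and Pkp1 in 2 comparisons. The members had 13 of 95 called (13.7%, 7 higher and 6 lower), and all genes 3.74%. Basal-like cells weigh more among the members, so these shares are not alike. In OVX_E2_PBDE against OVX_E2, 8 members and 4369 genes were compared there, but 7 members and 9128 genes in L-Hor-like cells. Without the cells above the luminal limit, the 4 pairs called in that comparison were lost, Krt7 because it had too few UMIs left to be compared. Krt18 in OVX_E2_P4_PBDE over OVX_E2_P4 then turned to 0.784, while the Krt15 calls in basal-like cells remained. Jup, plakoglobin, had the highest level of the list in luminal cells, with medians over libraries of 174 CPM in L-Hor-like and 217 CPM in L-Alv-like cells, and 178 CPM in basal-like cells. In basal-like cells Perp led with a median of 313 CPM, ahead of Itga6, a hemidesmosome integrin, with 282 CPM. Col17a1, the hemidesmosome collagen that binds keratin linkers, stood at 83.2 CPM in basal-like and at most 1.01 CPM in L-Hor-like or L-Alv-like cells. Dsg3 and Dsc3, the desmosomal cadherins of stratified epithelia, had a median of 0 CPM in all 3 types.

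Of the other intermediate filament genes 2 of 40 pairs were called (5%). Vim and Synm were lower in basal-like cells of OVX_E2 than of OVX. The 7 fibroblast markers summed to 2895 CPM in these cells of OVX and 1345 CPM in those of OVX_E2. Synm stood at 1.42 to 2.38 CPM in fibroblast-like and 35.2 to 126 CPM in basal-like cells over the libraries. The part of fibroblast transcripts in the lower Vim and Synm was not tested. Lmna, a nuclear lamin, led this list with medians of 357 CPM in L-Hor-like, 1101 CPM in L-Alv-like and 594 CPM in basal-like cells. Vim, vimentin, had a median of 326 CPM in basal-like cells, against 2114 CPM in fibroblast-like cells.

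The likeness of the members was described over 18 profiles of a cell type and library as the Pearson correlation of log2(CPM + 10), with no p-value since profiles of a library share its depth and free RNA. Krt14 and Krt17 correlated at 0.99, Krt5 and Krt14 at 0.988, and Krt8 and Krt18 at 0.980, whereas Krt15 correlated with the 3 other basal keratins at only 0.498 to 0.602. Among 6826 other genes, Krt5 was most like Cnn1 (0.997), Myh11 and Myl9, and Krt14 most like Cnn1 (0.99), 1500015O10Rik and Zak, of which Cnn1, Myh11 and 1500015O10Rik had served to name basal-like cells. Krt17 was most like Flna (0.99), Fzd7 and Zak. Krt15 had no gene above 0.891, which was Sh3pxd2a, followed by Cnot6l and Igfbp2. Krt7 was most like the water channel gene Aqp5 (0.991), Tspan13 and Tmprss2, Krt8 like Slc9a3r1 (0.982), Syne4 and Trps1, Krt18 like Crb3 (0.967), Cldn3 and Syne4, and Krt19 like Rab25 (0.99), Chchd10 and Mrpl14.

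Between single cells of a type, thinned to 3000 UMIs, the Spearman correlation of Krt14 with Krt17 was 0.391 to 0.730 in basal-like cells over the 5 libraries. That of Krt8 with Krt18 was 0.415 to 0.636 in L-Alv-like and 0.260 to 0.429 in L-Hor-like cells. Krt5 with its partner Krt14 ranged from -0.05 to 0.448 in basal-like cells. There Krt14 with Krt18 was -0.354 in OVX_E2_PBDE and -0.303 in OVX_E2_P4_PBDE, against 0.108 to 0.111 in the other libraries. Krt8 with Krt18 was highest in the same PBDE libraries, at 0.507 and 0.627, and as low as -0.067 in OVX. These PBDE libraries had the largest shares of basal-like cells above the luminal limit, whose part in the correlations was not tested.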

How the data were processed

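The authors ran Cell Ranger 2.0.0 on each library against mm10, as their processing notes state, and deposited filtered matrices of raw UMI counts per gene and barcode. The members and gene lists were chosen with earlier results of these data known. Barcodes with at least 500 genes, at least 1000 UMIs and at most 10% mitochondrial UMIs were kept. Cells were clustered library by library in Seurat 5.3.0 (R 4.3.3) on 2000 variable genes without any Krt gene, using 10 principal components and 20 neighbours, at resolution 0.3 (OVX) or 0.5 (the other libraries). Clusters were named from markers other than keratins, with limits set after the clusters had been seen, so a difference from the study may come from the rebuilt names. A mixed luminal cluster was set aside as a putative multiplet when its mean profile correlated at 0.99 or more with a mixture of 2 others. It also had to have fewer than 5 genes of its own and under 50% proliferating cells. Its median UMIs, genes and Scrublet score had to exceed those of both others. Clusters with both epithelial and stromal markers were set aside without this comparison. OVX, which had no L-Alv-like cluster, had 0 putative multiplets, and the other libraries had 372 to 514.

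UMIs were summed per type and library and given as CPM with exact Poisson intervals, exact binomial intervals for shares and exact conditional intervals for ratios, at 95% (scipy 1.17.1). PCR copies are collapsed by the UMI, and intervals and the limit of 3 counts cover counting error only. Cells were thinned to 3000 UMIs for shares of cells, and no cell fell below that depth. The genes named are all 8 members, other Krt genes with at least 50 epithelial UMIs, the highest levels of the junction and filament lists, and the 3 genes most like each member among those with at least 500 UMIs in the profiles of at least 20 cells. The called genes of those lists, Col17a1, Dsg3, Dsc3 and Vim were named after their values had been seen. With 1 library per group no test was run. The rules for ratios, calls and intervals were tried on simulated counts of L-Hor-like cells with counting error only. The other steps were not tried on simulated data. Scrublet's automatic threshold called 2.16% to 2.55% of barcodes in 4 libraries and 23.2% in OVX_E2_P4, so the Scrublet alternative removed the 20% with the highest score in each library. The alternatives were other multiplet, mitochondrial, resolution and UMI limits, Krt genes among the variable genes, median-of-ratios scaling, means of single cells, subtraction of the fibroblast-like level and removal of basal-like cells above the luminal limit, some of them added after seeing the data.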

Additional observations from a re-analysis of the deposited data

Results flagged for a closer look

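The ratio of Krt14 in L-Hor-like cells for progesterone pointed in opposite directions without and with PBDEs, at 1.73 in OVX_E2_P4 over OVX_E2 and 0.638 in OVX_E2_P4_PBDE over OVX_E2_PBDE, and the difference was not tested. The latter was 0.999 with multiplet clusters kept. These values rest on 29 and 74 UMIs and on 53 and 17 UMIs. Krt14 in fibroblast-like cells went from 8.19 to 14.2 CPM and from 3.81 to 5.24 CPM in the same comparisons, and its part in the ratios was not tested.

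Outside the epithelial cells, 1 of the 163 hematopoietic-like barcodes of OVX held 102 Krt14 UMIs among its 6235 UMIs. The same barcode held 35 UMIs of Krt17, 2 of Krt5, 1 of Krt8 and 1 of Krt18, along with 15 of Acta2, a gene of contractile cells, and 2 of Ptprc, the leukocyte marker CD45.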

How the results depend on the processing

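The basal share of keratin UMIs in basal-like cells (57.3%) became 70.5% when the 20% of barcodes with the highest Scrublet score were removed in place of multiplet clusters, 52.4% with a mitochondrial limit of 5%, 64.3% with the fibroblast-like level subtracted, 67.8% as a mean of single cells and 80.4% without the cells above the luminal limit. In L-Hor-like cells (0.313%) it became 0.390% with multiplet clusters kept, 0.360% with that removal by score and 0.196% with the fibroblast-like level subtracted, and in L-Alv-like cells (0.532%) 0.657% and 0.321% with the first and last of these. The counts of called pairs that follow stand without the shares of all genes called under the same settings, which are not given here. For OVX_E2 against OVX the 3 called pairs became 5 with multiplet clusters kept, with a mitochondrial limit of 5%, with a resolution of 1.0, with Krt genes among the variable genes and with a minimum of 10 or 1 UMIs, and 6 with that removal by score. Krt14 in basal-like cells lost its call with that removal and with median-of-ratios scaling. It also did so as a mean of single cells and without the cells above the luminal limit. For OVX_E2_P4 against OVX_E2 the 0 called pairs became 1 with a mitochondrial limit of 5%, 4 with the fibroblast-like level subtracted and 1 without the cells above the luminal limit. For OVX_E2_P4_PBDE against OVX_E2_P4 the 5 became 3 with median-of-ratios scaling and 8 with a minimum of 10 or 1 UMIs. The pairs added by the lower minimum rest on few UMIs. These were Krt5 in L-Hor-like (5 and 25) and L-Alv-like cells (2 and 26), and Krt15 in L-Alv-like cells (1 and 36). For OVX_E2_P4_PBDE against OVX_E2_PBDE the 1 became 2 with that removal by score, as a mean of single cells, with a minimum of 10 or 1 UMIs and without the cells above the luminal limit, and 3 with the fibroblast-like level subtracted. In basal-like cells of OVX_E2_PBDE over OVX_E2, Krt18, Krt7 and Krt8 lost their calls as a mean of single cells. Krt7 also lost it with that removal by score. For OVX_E2_PBDE against OVX_E2 the 4 became 0 without the cells above the luminal limit, where Krt7 had too few UMIs to be compared. Among the called ratios in basal-like cells that were still compared, leaving out those cells turned the direction of 2. These were Krt18 in OVX_E2_P4_PBDE over OVX_E2_P4, at 0.784, and Krt19 in OVX_E2_PBDE over OVX_E2, at 0.914. The same step turned ratios that were not called, as given beside the comparisons. It also turned Krt5 in OVX_E2_PBDE over OVX_E2 from 0.789 to 1.15 and Krt19 in OVX_E2_P4_PBDE over OVX_E2_PBDE from 0.929 to 1.26. The cause of these changes was not tested.

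Of the 95 ratios compared, 13 were called, and 94 of their 113 alternative values were still past 2-fold, while 22 of 729 values of the others were past 2-fold. A UMI minimum changes only which ratios are compared. The limit on luminal markers and the settings that use it were chosen after seeing the data. No paired analysis was possible because each group is 1 library, and leaving out a library leaves no comparison. Small basal-like groups limit depth: at 60 cells and 404793 UMIs in OVX, 3 counts are 7.41 CPM.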

Other observations

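Of the 43 other Krt genes, 13 had no UMI in epithelial cells, 18 had between 1 and 49 and 12 had at least 50. Krt6a, a type II keratin known from wounded and ductal epithelium, had the most, with 2343 UMIs and 73.1 CPM over all L-Hor-like cells, against 2.39 CPM in fibroblast-like cells. In L-Hor-like cells it stood at 18.1 CPM in OVX, 56.7 in OVX_E2, 105 in OVX_E2_P4, 71.4 in OVX_E2_PBDE and 45.5 in OVX_E2_P4_PBDE, with OVX the lowest. Krt4, a type II keratin of mucosal epithelia, followed with 1423 UMIs and stood at 63.4 CPM in OVX, 29.6 in OVX_E2, 87.0 in OVX_E2_P4, 24.0 in OVX_E2_PBDE and 17.3 in OVX_E2_P4_PBDE in L-Hor-like cells, where both PBDE libraries were the lowest. Krt79 (775 UMIs) had an L-Hor-like level of 2.59 CPM in OVX and between 19.0 and 26.7 CPM in the others. The OVX value rests on 2 UMIs and so lies under the limit of 3 counts.

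Krt16 had 493 epithelial UMIs, with 18.1 CPM in L-Alv-like cells. In that type Krt17 was also above its level in fibroblast-like cells, as were Krt14 and Krt15 by smaller ratios. Krt23 had 299 UMIs and 33.7 CPM in basal-like cells, with 74.8 CPM in OVX_E2 and 12.4 to 33.2 CPM in the other libraries, against 15.3 CPM in fibroblast-like cells. Krt10 (1195 UMIs) and Krt36 (73 UMIs) were at 43.3 and 21.3 CPM in fibroblast-like cells. Krt42, which lies 1852 bases from Krt17, had 52 of its 64 epithelial UMIs in basal-like cells. Krt71, which lies 21050 bases from Krt5, had 46 of its 50 there. Krt78 (271 UMIs), Krt1 (159 UMIs) and Krt13 (133 UMIs) had most of theirs in L-Hor-like cells, with 189, 99 and 114 UMIs, and Krt13 was at 8.34 CPM in fibroblast-like cells against 4.77 CPM in L-Hor-like cells.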
